A study of Xenopus laevis with 4 samples.

Results

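The nuclear genes of the mitochondrial respiratory chain and of the ATP synthase were followed in whole Xenopus laevis gastrulae. Members were chosen by gene symbol and mean signal, with earlier results of these data known. The symbols were those of complex I (nduf), complex II (sdh), complex III (uqcr and cyc1), complex IV (cox4 to cox8) and the ATP synthase (atp5). Probe sets had to be annotated to 1 gene, with a mean signal of at least 100 over the 4 arrays. This gave 62 gene copies of 52 genes, out of 5201 gene copies and 9251 probe sets tested. Complex I had 23 members, complex II 3, complex III 6, complex IV 12 and the ATP synthase 17, and the last was ndufaf7.S, an assembly factor of complex I. Where several probe sets read 1 gene, the brightest stood for it. The suffixes .L and .S name the homeologous copies that this allotetraploid frog carries of many genes. None of the 14 listed subunits encoded in mitochondrial DNA was measured.

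Complexes I and II pass electrons from NADH and succinate to ubiquinone, complex III passes them on to cytochrome c, and complex IV passes them to oxygen. Complexes I, III and IV pump protons across the inner mitochondrial membrane, and the ATP synthase uses the return flow to make ATP. In frogs the egg supplies the early embryo with mitochondria and with many of these transcripts, and the embryo's own genome is transcribed from the mid-blastula stage.

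Embryos received 40 ng of each of 2 morpholinos against xSGK1 or 80 ng of a control morpholino, injected radially at the 4-cell stage, and were taken at stage 12, in gastrulation. Morpholinos are antisense oligonucleotides that block translation or splicing, and SGK1 is a serine/threonine kinase activated downstream of PI3K. All embryos came from in vitro fertilisation and no other genotype or agent is named; the number of embryos behind an array is not given in the sources used here. Both injections were made in each of 2 independent experiments, with 1 array apiece (n = 2 arrays a group). Arrays were assigned to experiments by their replicate number, which no label ties to an experiment directly. The design asks which transcripts depend on SGK1, and the 2 experiments let each difference be read separately in each. Both xSGK1 morpholinos were injected together, so their effects cannot be told apart.

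The 4 arrays were similar in range: 9051 to 9210 probe sets reached a signal of 100 and the median signal was 161 to 174. The arrays correlated at 0.799 to 0.955 on the log2 scale, lowest between xSGK1 in experiment 2 and control in experiment 1. Summed over the 62 members, the signal was 65315 and 62706 in xSGK1 embryos (experiments 1 and 2), against 59944 and 58837 in control embryos. The 3' to 5' ratio of beta-actin, a sign of RNA length read from control probe sets, was 3.38 and 2.06 in xSGK1 and 3.11 and 2.24 in control, so it differed mainly between experiments. That of GAPDH was 17.7 and 15.6 in xSGK1 and 16.6 and 16.4 in control. The sgk1.L transcript measured 3071 and 3300 in xSGK1 against 2321 and 2839 in control (limma adjusted p = 0.126 with the experiment as a block). Since morpholinos act on translation or splicing, this level is no check of the knockdown. Because whole embryos were measured, fewer cells of a type and less RNA per cell cannot be told apart.

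Few respiratory chain genes passed the test between xSGK1 and control embryos, and those that did came from complexes I, III and IV and the ATP synthase. With the experiment as a block, 4 members rose in xSGK1 embryos: uqcrc1.L, ndufs6.S, atp5if1.L and cox7a2l.L. With the same fit 1 member fell, uqcrq.S. The 5 differences ranged in size from 0.79 to 1.35 on the log2 scale of signal + 16, which understates changes of dim genes. Over all probe sets tested, 4.09% rose and 3.91% fell by this rule, so the members' shares lay near the background. The fit without the block, which was planned as the primary one, called 0% of the probe sets and 0 members, with a smallest limma adjusted p of 0.999 among the members. At an unadjusted p under 0.05 that fit held 334 probe sets and 2 members, ndufs6.S and atp5if1.L. At the same threshold the blocked fit held 2792 of the 9251 probe sets and 15 of the 62 members. With 2 arrays a group, the smallest p an exact permutation test of the unpaired arrays can reach is 0.333. With the block, swaps within experiments allow fewer arrangements, so an exact test could not reach a lower p. Each call thus rests on limma's spread estimate shared across probe sets, over 2 experiments.

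Each member's direction could also be read in the 2 experiments. In both experiments 28 members were higher in xSGK1 and 12 were lower, and 22 pointed opposite ways. Of all probe sets, 40.8% were higher in both and 31.9% lower in both. Both xSGK1 arrays lay above both control arrays for 15 members, against 16.3% of all probe sets, and below them for 5 members, against 13.8%. The median log2 difference of the members was 0.11, with 0.15 in experiment 1 and 0.12 in experiment 2, beside 0.04 for all probe sets in either experiment. In the fit without the block the members' median was 0.19 without the control array of experiment 1 and 0.24 without the xSGK1 array of experiment 2. These 2 values also hold part of the members' experiment differences.

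**Figure D1:**
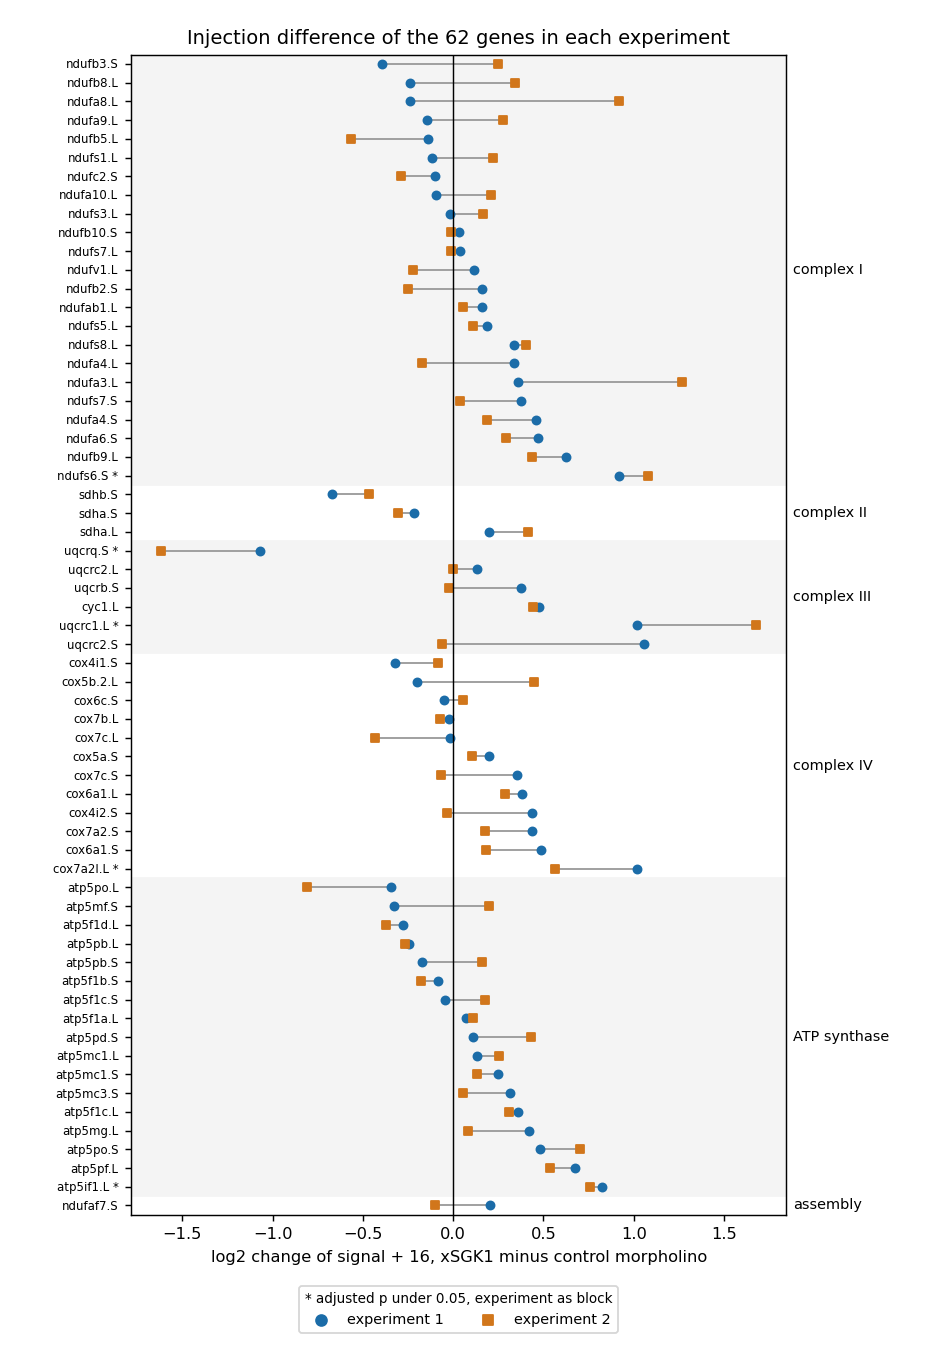
Log2 difference of signal + 16, xSGK1 minus control morpholino, for the 62 members by complex (x axis, log2 units; 1 gene copy per line), with circles for experiment 1 and squares for experiment 2 (1 array per injection in each) and an asterisk for an adjusted p under 0.05 with the experiment as a block. Most members lie close to 0, uqcrq.S lies far to the left in both experiments, and uqcrc1.L, ndufs6.S, cox7a2l.L and atp5if1.L lie to the right in both.

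Complex I takes electrons from NADH through a peripheral arm in the matrix into a membrane arm. Its member that rose was ndufs6.S, a zinc-binding accessory subunit of the peripheral arm. Its signal was 207 and 231 in xSGK1 embryos of experiments 1 and 2, against 102 and 101 in control embryos. Both xSGK1 arrays lay above both controls and the experiments nearly coincided. The means were 219 ± 16.8 and 101 ± 0.777 (SD, n = 2 each), 2.03-fold and 2.29-fold higher within experiments 1 and 2, with a log2 difference of 0.999 ± 0.19 (SE) and a limma adjusted p of 0.0336 with the block. The adjusted p lay between 0.0129 and 0.0488 over the 8 alternative settings in which this dim gene was tested with the block. Leaving out any 1 array, in the fit without the block, kept the log2 difference between 0.93 and 1.07. Such values also hold part of the experiment difference, which was small for this gene (0.07).

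The other complex I members that came nearest did not pass. The membrane arm subunit ndufa3.L had 387 and 470 in xSGK1, against 299 and 186 in control, a difference carried mostly by experiment 2 (limma adjusted p = 0.0932 with the block). For ndufb9.L, also of the membrane arm, the signals were 512 and 415 in xSGK1 and 327 and 303 in control (limma adjusted p = 0.0949). In both genes the xSGK1 arrays lay above both controls. A second, dimmer probe set of ndufb9.L gave a log2 difference of -0.20 (limma adjusted p = 0.593), so the probe sets of this gene pointed opposite ways. Of the core subunits that carry the electron path, ndufs8.L had 879 and 771 in xSGK1 against 694 and 580 in control, and ndufs1.L had 1020 and 1238 in xSGK1 against 1107 and 1061 in control. The ndufs8.L groups did not overlap, while those of ndufs1.L did, and neither gene passed (limma adjusted p = 0.15 and 0.844 with the block). The most negative log2 difference in complex I was that of ndufb5.L, a membrane arm subunit, with 581 and 426 in xSGK1 against 642 and 638 in control (limma adjusted p = 0.224). Over the 23 members the median log2 difference was 0.07, the range -0.35 to 0.999, and 9 were higher in both experiments, 2 lower and 12 opposite. Leaving out ndufa4, which in mammals is now counted to complex IV, kept the median at 0.07 over 21 members. This gene's copy ndufa4.L read 2477 and 2266 in xSGK1 and 1959 and 2555 in control, and its groups overlapped. Its other copy ndufa4.S read 691 and 442 in xSGK1 and 497 and 386 in control, and the accessory subunit ndufa6.S read 1299 and 860 in xSGK1 and 935 and 699 in control. Both were higher in xSGK1 within each experiment, with overlapping groups and no call (limma adjusted p = 0.231 and 0.136 with the block). The assembly factor ndufaf7.S, a methyltransferase in mammals, read 493 and 322 in xSGK1 and 427 and 347 in control (limma adjusted p = 0.868).

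Complex II is succinate dehydrogenase, which also belongs to the tricarboxylic acid cycle, and 3 of its gene copies were measured. The iron-sulfur subunit sdhb.S had 705 and 738 in xSGK1 embryos, against 1133 and 1024 in control embryos. Both xSGK1 arrays lay below both controls, by -0.67 on the log2 scale in experiment 1 and -0.46 in experiment 2. The difference of -0.57 ± 0.14 (SE) did not pass with the block (limma adjusted p = 0.0638), but passed with an offset of 64 (0.0459) and after cyclic loess normalization (0.0252). The flavoprotein subunit sdha was measured in both copies. The brighter copy sdha.L had 1620 and 1608 in xSGK1 against 1409 and 1202 in control, and sdha.S had 97.4 and 131 in xSGK1 against 116 and 166 in control. The 2 copies pointed opposite ways in both experiments, and neither passed (limma adjusted p = 0.178 and 0.392 with the block). The membrane anchor sdhd reached the signal minimum only in a probe set shared by its .L and .S copies, at 207 and 246 in xSGK1 and 166 and 192 in control. The log2 differences of this shared set were 0.30 and 0.33 in experiments 1 and 2. The probe set of sdhd.S alone lay below the signal minimum and was lower in xSGK1, by -0.02 and -0.28.

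Complex III held the largest rise and the largest fall among the members called. The core protein uqcrc1.L, part of the matrix-facing base of the complex, had 609 and 2042 in xSGK1 embryos of experiments 1 and 2, against 293 and 626 in control embryos. The groups overlapped, because the control array of experiment 2 was above the xSGK1 array of experiment 1, but xSGK1 was the higher array within each experiment. The means were 1326 ± 1013 and 460 ± 236 (SD, n = 2 each), with 2.08-fold and 3.26-fold higher signals within experiments 1 and 2. The log2 difference was 1.35 ± 0.20 (SE), with a limma adjusted p of 0.0250 with the block.

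The small subunit uqcrq.S, which lies near the ubiquinone-binding cytochrome b, went the other way. Its signal was 609 and 104 in xSGK1 and 1294 and 352 in control. Here too the groups overlapped, and xSGK1 was the lower array within each experiment, at 0.470 and 0.295 of the control signal. The means were 356 ± 357 in xSGK1 and 823 ± 667 in control (SD, n = 2 each), a log2 difference of -1.34 ± 0.19 (SE) and a limma adjusted p of 0.0246 with the block. Leaving out 1 array in the fit without the block makes the experiments unequal between the groups. Part of the experiment difference then enters the log2 difference, so these values do not show how far it rests on single arrays. Leaving out the xSGK1 array of experiment 1 moved the log2 difference of uqcrc1.L to 2.21 and that of uqcrq.S to -2.54, and leaving out that of experiment 2 moved them to 0.49 and -0.15. They were 0.82 and -0.43 without the control array of experiment 1, and 1.88 and -2.26 without that of experiment 2.

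Other complex III members did not pass. The electron-carrying subunit cytochrome c1, cyc1.L, had 912 and 927 in xSGK1 and 652 and 678 in control. Its groups were well apart and both experiments gave nearly the same log2 difference, 0.47 and 0.44, but with a limma adjusted p of 0.0953 with the block. A second, dimmer probe set of cyc1.L gave 0.19 (limma adjusted p = 0.515). The second core protein uqcrc2.L read 1425 and 2447 in xSGK1 and 1299 and 2445 in control, nearly equal between injections. Its other copy uqcrc2.S read 732 and 744 in xSGK1 against 343 and 776 in control, so that only the control array of experiment 1 stood apart (limma adjusted p = 0.265). The small subunit uqcrb.S had 714 and 448 in xSGK1 and 547 and 456 in control, with overlapping groups (limma adjusted p = 0.520). The Rieske iron-sulfur protein uqcrfs1 was read by a probe set shared by its .L and .S copies and was therefore not a member. It had 5528 and 4291 in xSGK1 and 5460 and 4913 in control (limma adjusted p = 0.576). The median over the 6 members was 0.32, from 0.43 in experiment 1 and -0.01 in experiment 2.

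In complex IV, cox7a2l.L rose; in mouse and human cells its protein joins complexes III and IV into supercomplexes. It had 500 and 1145 in xSGK1 and 239 and 771 in control. The groups overlapped, with the xSGK1 array higher in each experiment, 2.09-fold in experiment 1 and 1.49-fold in experiment 2. The means were 823 ± 457 and 505 ± 376 (SD, n = 2 each), with a log2 difference of 0.79 ± 0.17 (SE) and a limma adjusted p of 0.0496 with the block. That call lies at the threshold: it was lost with no signal filter (0.0544), quantile normalization (0.0663), no intensity trend (0.0675) and robust variance moderation (0.0506). In the fit without the block the difference was -0.02 without the control array of experiment 1 and 1.60 without that of experiment 2. It was 1.38 and 0.20 without the xSGK1 arrays of experiments 1 and 2. These values also hold part of the gene's experiment difference of 1.40, so they do not show how far the call rests on single arrays.

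The remaining complex IV genes did not pass. The close relative cox7a2.S had 990 and 873 in xSGK1 against 726 and 769 in control, with no overlap (limma adjusted p = 0.220 with the block). The nuclear-encoded subunit cox6a1 gave nearly the same log2 difference in both copies when averaged over the experiments. Its copy cox6a1.L had 1223 and 482 in xSGK1 and 934 and 393 in control, and cox6a1.S had 795 and 744 in xSGK1 and 562 and 655 in control (limma adjusted p = 0.183 and 0.212). The .L groups overlapped, with both experiment 2 arrays low, and the .S groups did not. For cox4i1.S, the regulatory subunit IV, the signals were 424 and 502 in xSGK1 and 534 and 533 in control, and a second probe set gave a log2 difference of -0.08. The subunit cox5a.S, read 2629 and 1963 in xSGK1 and 2292 and 1823 in control, overlapping between groups. The median of the 12 members was 0.15 and the range -0.22 to 0.79.

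**Figure D2:**
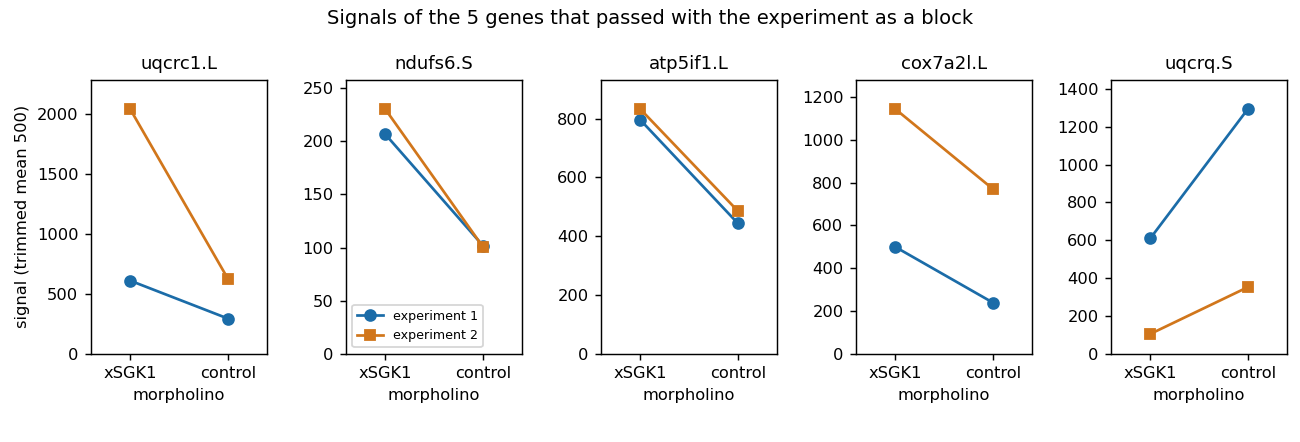
Signal (y axis, scaled to a trimmed mean of 500, linear, each panel with its own range from 0) of the 5 members called with the experiment as a block, with xSGK1 left and control right, 1 array per point, blue circles for experiment 1, orange squares for experiment 2 and a line joining the arrays of 1 experiment. Both lines of uqcrc1.L, ndufs6.S, atp5if1.L and cox7a2l.L are higher at xSGK1 and both lines of uqcrq.S are lower, while only ndufs6.S and atp5if1.L have similar levels in both experiments.

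In the ATP synthase the called member was atp5if1.L, the inhibitor that in mammals stops the enzyme from hydrolysing ATP. Its signal was 796 and 833 in xSGK1 embryos and 443 and 485 in control embryos. Both xSGK1 arrays lay above both controls, and the experiments differed little. The means were 814 ± 26.0 and 464 ± 29.7 (SD, n = 2 each), 1.80-fold and 1.72-fold higher within experiments 1 and 2, with a log2 difference of 0.79 ± 0.15 (SE) and a limma adjusted p of 0.0335 with the block. Over the 9 alternative settings of the blocked fit its limma adjusted p lay between 0.0122 and 0.0490. Without the block any 1 array could be left out with the log2 difference between 0.73 and 0.85. Such values also hold part of the experiment difference, which was small for this gene (0.10).

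The subunits of the catalytic head did not pass. Its beta subunit atp5f1b.S had 8677 and 8074 in xSGK1 and 9187 and 9127 in control, and the alpha subunit atp5f1a.L had 2757 and 2473 in xSGK1 and 2627 and 2288 in control. Both xSGK1 arrays of atp5f1b.S lay below both controls, and the atp5f1a.L groups overlapped (limma adjusted p = 0.294 and 0.605 with the block). The gamma subunit of the rotating stalk, atp5f1c.L, had 1358 and 1406 in xSGK1 against 1055 and 1130 in control, with no overlap but no call (limma adjusted p = 0.146). Its other copy atp5f1c.S had 1513 and 1634 in xSGK1 and 1559 and 1442 in control. The delta subunit atp5f1d.L read 245 and 181 in xSGK1 and 301 and 239 in control, and the membrane ring subunit atp5mc3.S read 6034 and 6029 in xSGK1 and 4843 and 5814 in control. Of the same ring, atp5mc1.L had 328 and 430 in xSGK1 against 298 and 358 in control, and atp5mc1.S had 765 and 1086 in xSGK1 against 641 and 991 in control. Both copies were slightly higher in xSGK1 within each experiment, with overlapping groups (limma adjusted p = 0.461 and 0.402 with the block).

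Members of the peripheral stalk, which holds the head still, ran from a log2 difference of -0.58 for atp5po.L to 0.60 for atp5pf.L, and none passed. The coupling factor 6 subunit atp5pf.L had 196 and 218 in xSGK1 and 117 and 145 in control, with no overlap (limma adjusted p = 0.0923 with the block). The oligomycin sensitivity-conferring subunit atp5po was read in both copies: atp5po.L had 695 and 158 in xSGK1 and 888 and 289 in control, and atp5po.S had 419 and 664 in xSGK1 and 295 and 402 in control. The .L copy was the lower in xSGK1 within each experiment, the .S copy the higher. By themselves the differences, -0.58 ± 0.18 for .L and 0.59 ± 0.16 for .S (SE), did not pass (limma adjusted p = 0.1003 and 0.0745), although atp5po.L passed after cyclic loess normalization (0.0398). In the fit without the block atp5po.L gave 0.21 without the control array of experiment 1 and 0.44 without the xSGK1 array of experiment 2. These 2 values also hold part of its experiment difference of -1.80. Within experiments 1 and 2 the log2 difference of atp5po.L was -0.35 and -0.81. Of the 17 ATP synthase members, 10 were higher in both experiments, 4 lower and 3 opposite; the median was 0.18 and the range -0.58 to 0.79. In 7 of them both xSGK1 arrays were above both controls and in 2 below, against 16.3% and 13.8% of all probe sets.

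Both copies of 10 genes were measured, which allowed the difference between copies to be compared with the injections. This test, added after the values had been seen, took .L minus .S per array over all 655 such pairs on the array, with the experiment as a block. The copies of 1 member pair, atp5po, differed in their response, by -0.83 in experiment 1 and -1.51 in experiment 2, or -1.17 ± 0.22 overall (SE; limma adjusted p = 0.0107). Among all pairs 8.70% passed, a share near that of the member pairs. Between experiments the atp5po copies differed more, by -2.33 (limma adjusted p = 7.4e-05). The injection call of atp5po was absent without the block (adjusted p = 0.99988). It was also absent with an offset of 64, where the difference was -1.03 (adjusted p = 0.159). The copies of sdha differed by 0.57 in the other direction (limma adjusted p = 0.106). For cox6a1 and atp5mc1 the copies gave nearly the same average, with a difference of 0.00 on the log2 scale and a standard error of 0.20 each. Within experiments 1 and 2 the copies differed in opposite directions, by -0.10 and 0.11 for cox6a1 and by -0.12 and 0.12 for atp5mc1. Probe sets of homeologous copies can cross-hybridise, and how far was not tested.

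**Figure D3:**
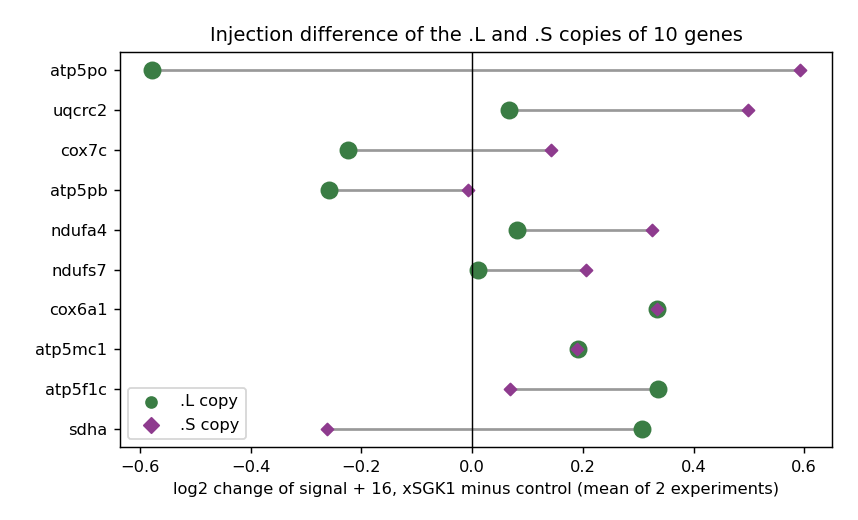
Log2 difference of signal + 16, xSGK1 minus control morpholino, averaged over the 2 experiments (x axis, log2 units), for the .L copy (green circle) and the .S copy (purple diamond) of the 10 genes measured in both, joined by a line. The widest line is that of atp5po, with .L at -0.58 and .S at 0.59, and the symbols of cox6a1 and atp5mc1 coincide.

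More members passed between the 2 experiments than between the injections. With the injection as a covariate, 7 members were higher in experiment 2 than in experiment 1 and 13 were lower. Among all probe sets 20.9% were higher and 19.9% lower. The members' median difference was 0.03 on the log2 scale, against 0.01 for all probe sets. This count rests on pairing the arrays: without the injection as a covariate 0 members passed, and in that fit leaving out 1 array gave 8 members without the control array of experiment 2 and 0 without any of the other three. Each side of this comparison is 1 experiment, so its p-values do not measure the spread between independent experiments. What set the experiments apart besides being independent is not given in the sources used here.

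Of the 13 members lower in experiment 2, most were accessory subunits of complexes I and IV. In complex I, 6 members were lower: ndufa6.S, ndufa8.L, ndufab1.L, ndufb10.S, ndufb8.L and ndufc2.S. The membrane arm subunit ndufc2.S had 888 and 1088 in the xSGK1 and control arrays of experiment 2, against 1891 and 2032 in those of experiment 1, a log2 difference of -0.98 (limma adjusted p = 0.00445). Both experiment 2 arrays lay below both experiment 1 arrays. The mitochondrial acyl carrier protein ndufab1.L had 218 and 210 in experiment 2 against 346 and 308 in experiment 1 (log2 difference -0.57, limma adjusted p = 0.0387). For ndufb10.S the call depended on the probe set. The brighter set read 234 and 236 in experiment 2 against 502 and 490 in experiment 1, and the second set 492 and 353 against 195 and 176. Their log2 differences were -1.03 and 1.11, and both passed (limma adjusted p = 0.00631 and 0.00671). The second set of cyc1.L passed at 0.65 and that of ndufb9.L at -1.18 (limma adjusted p = 0.0321 and 0.0119). The brighter sets of these genes, at 0.04 and -0.20, did not (limma adjusted p = 0.839 and 0.358). For cox4i1.S neither set passed.

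In complex IV 5 members were lower in experiment 2: cox7c.L, cox7c.S, cox6a1.L, cox7b.L and cox5a.S. The small subunit cox7c.S had 1374 and 1440 in the xSGK1 and control arrays of experiment 2 against 3242 and 2535 in those of experiment 1. Its other copy cox7c.L had 272 and 374 in experiment 2 against 917 and 927 in experiment 1, so both copies were lower in both injections, by -1.02 and -1.48 on the log2 scale (limma adjusted p = 0.00499 and 0.00369). For cox6a1 the fall was in the .L copy alone, at -1.27 against 0.06 for .S, and the copies' difference passed (-1.33, limma adjusted p = 0.000614). The most negative experiment difference among the members was that of uqcrq.S, -2.11 (limma adjusted p = 0.00238), and next came atp5po.L at -1.80 (limma adjusted p = 0.00306).

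Members that were higher in experiment 2 included both core proteins of complex III, uqcrc1.L (1.39) and uqcrc2.L (0.84). The isoform of subunit IV cox4i2.S had 1853 and 1895 in the xSGK1 and control arrays of experiment 2 against 885 and 649 in those of experiment 1, a log2 difference of 1.29 (limma adjusted p = 0.00394). In complex I ndufa10.L, an accessory subunit of the membrane arm, had 693 and 596 in experiment 2 against 281 and 301 in experiment 1 (1.103, limma adjusted p = 0.00587). Both genes' experiments were fully apart. In the ATP synthase atp5mc1.S (0.56) and atp5po.S (0.54) were higher, and cox7a2l.L was the last, at 1.40. Between copies, 3 of the 10 pairs differed across experiments, atp5po, cox6a1 and ndufa4, against 30.5% of all pairs.

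By complex, the median experiment difference was -0.19 in complex I, -0.04 in complex II, 0.31 in complex III, 0.01 in complex IV and 0.07 in the ATP synthase. No complex II member passed in either contrast. Both contrasts use the same 4 arrays, and 3 members passed in both: uqcrc1.L and cox7a2l.L, higher in xSGK1 and in experiment 2, and uqcrq.S, lower in both. Of all 9251 probe sets tested, 472 passed in both, a share near that of the members. The injection and experiment differences correlated at 0.471 (Pearson) across all probe sets and at 0.478 across the members. The beta-actin 3' to 5' ratio was 2.06 and 2.24 in experiment 2 against 3.38 and 3.11 in experiment 1, and that of GAPDH 15.6 and 16.4 against 17.7 and 16.6. Their part in these differences was not tested.

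**Figure D4:**
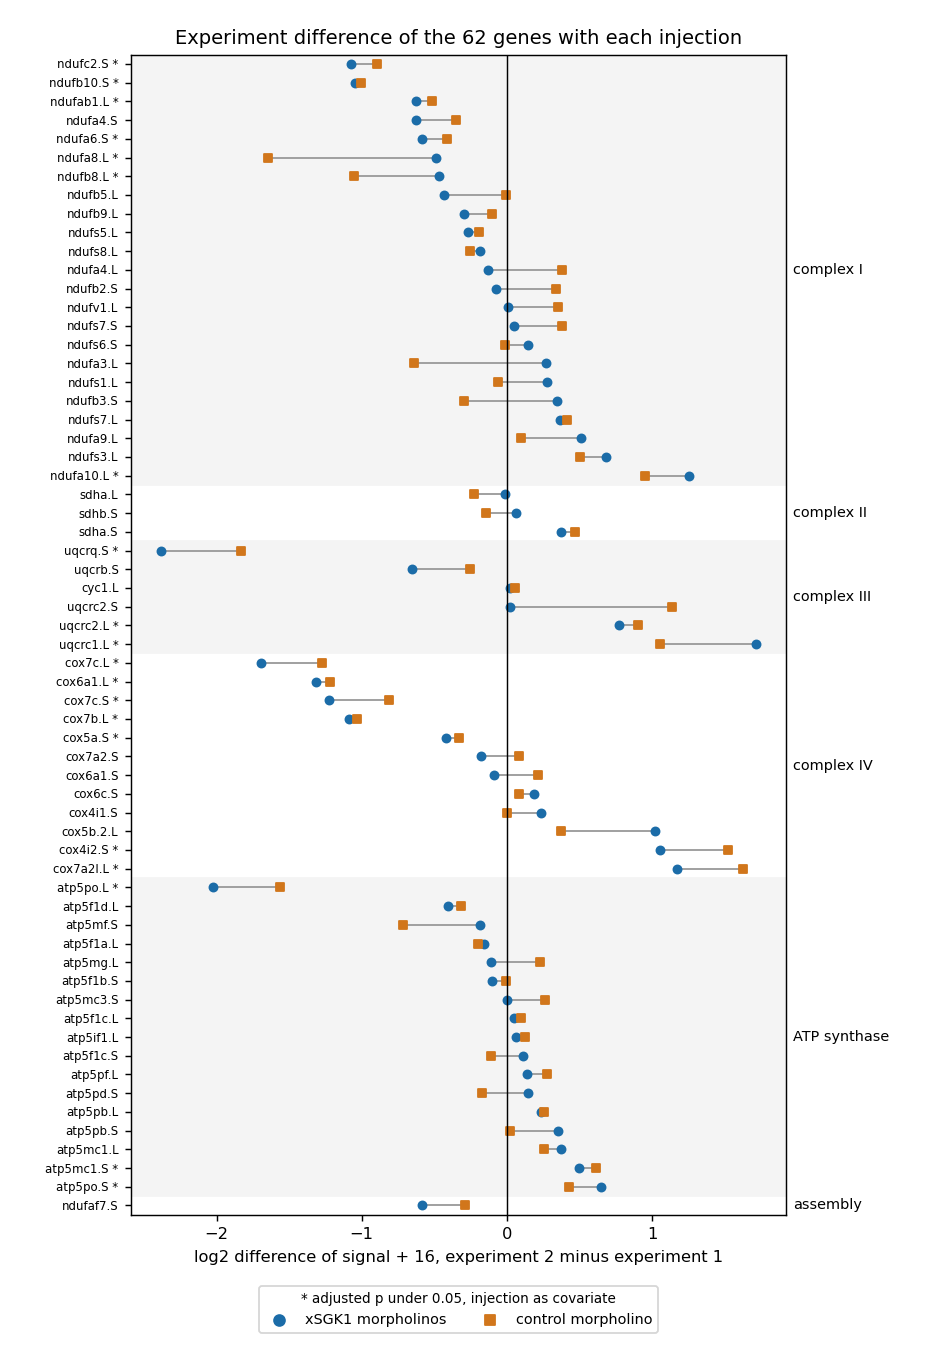
Log2 difference of signal + 16, experiment 2 minus experiment 1, for the 62 members by complex (x axis, log2 units; 1 gene copy per line), with circles for the xSGK1 morpholinos and squares for the control morpholino (1 array per experiment in each) and an asterisk for an adjusted p under 0.05 with the injection as a covariate. Complexes I, III and IV and the ATP synthase each span both sides of 0 with called members on both. All ATP synthase members apart from atp5po.L lie within 1 unit of 0.

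Other genes of mitochondrial energy metabolism were read from lists, beside the 4.09% of all probe sets that rose and 3.91% that fell with the block. Of 16 assembly factors outside the symbol pattern, 2 rose in xSGK1 with the block and 0 fell. The complex III assembly factor uqcc2.S had 358 and 463 in xSGK1 and 151 and 188 in control (log2 difference 1.19, limma adjusted p = 0.0242). The complex IV assembly factor coa5.L had 271 and 247 in xSGK1 and 131 and 113 in control (0.99, limma adjusted p = 0.0315). In both genes the groups were apart. None of the 10 genes for cytochrome c, carriers and pores passed, nor any of 23 for the tricarboxylic acid cycle and pyruvate dehydrogenase, 9 for other routes of electron entry, 10 regulators of mitochondrial biogenesis or 20 for protein import. At an unadjusted p under 0.05 the blocked limma fit held 2, 5, 3, 1 and 2 of these lists' genes, in that order. Of all 9251 probe sets tested it held 2792 at that threshold. The cytochrome c gene cycs.S had 2319 and 1299 in xSGK1 and 2141 and 1300 in control, and the regulator nrf1.S had 399 and 732 in xSGK1 and 297 and 441 in control (limma adjusted p = 0.785 and 0.0886 with the block). Of 34 mitochondrial ribosomal proteins 1 rose, mrps25.S, with 720 and 526 in xSGK1 and 339 and 297 in control (0.92, limma adjusted p = 0.0315).

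In 16 glycolysis genes 2 rose and 1 fell in xSGK1 with the block, against 4.09% and 3.91% of all probe sets. Phosphoglycerate kinase pgk1 had 1056 and 2391 in xSGK1 and 316 and 937 in control (1.51, limma adjusted p = 0.0188), and pgam1.S rose by 1.05. Glucose phosphate isomerase gpi.S had 801 and 1596 in xSGK1 and 1319 and 2874 in control (-0.78, limma adjusted p = 0.0279). Each of these 3 was also called between experiments, in which 12 of the 16 were higher in experiment 2 and 0 lower. The shares of all probe sets in that contrast were 20.9% higher and 19.9% lower. In the tricarboxylic acid cycle 10 of 23 were higher in experiment 2 and 1 lower. Of 71 cytoplasmic ribosomal proteins, 0 rose and 6 fell in xSGK1, with a median of -0.29, and 51 were lower in experiment 2.

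**Figure D5:**
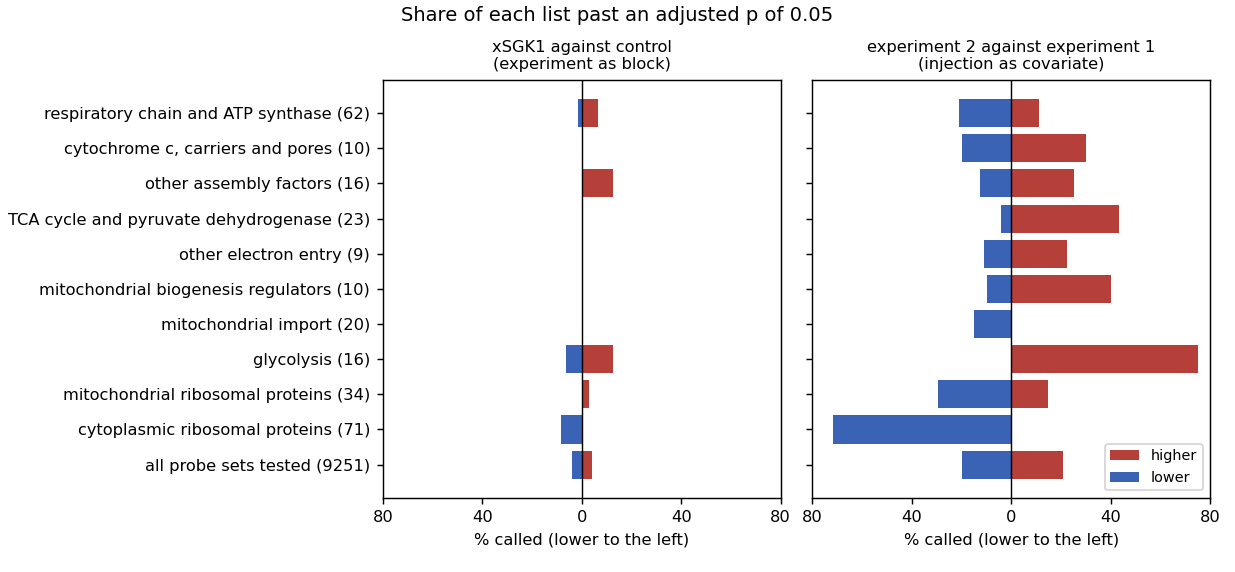
Percent of the members of each list (y axis, with the number of gene copies measured, or of probe sets in the bottom line) past an adjusted p of 0.05, higher to the right in red and lower to the left in blue, for xSGK1 against control with the experiment as a block (left panel) and for experiment 2 against experiment 1 with the injection as a covariate (right panel). The respiratory chain and ATP synthase line lies close to that of all probe sets in the left panel, and glycolysis and cytoplasmic ribosomal proteins stand farthest from it in the right panel, on opposite sides.

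Signals of some cell type markers also differed between the injections with the block, where 4.09% of all probe sets rose and 3.91% fell. Without the block none of the markers passed. Of 12 copies of maternal and germ plasm genes (10 of 11 listed symbols measured), 5 rose in xSGK1 with the block and 0 fell, and their summed signal was 12121 and 17941 in xSGK1 against 7863 and 12280 in control. Of 11 copies of epidermal genes (9 of 12 listed symbols measured), 0 rose and 4 fell, and the sum was 11147 and 5163 in xSGK1 against 17972 and 11115 in control. The epidermal lectin itln1.L had 529 and 49.995 in xSGK1 and 2914 and 471 in control (-2.65, limma adjusted p = 0.0152), so its xSGK1 signal in experiment 2 lay below the minimum of 100. Of 13 mesoderm copies 5 fell, of 15 endoderm copies 1 fell, and of 10 organizer and 9 neural plate copies none passed. The mesoderm sum was 19371 and 18995 in xSGK1 against 17548 and 20365 in control, so it pointed opposite ways in the experiments. In both experiments 3 mesoderm copies were higher in xSGK1 and 7 lower, and 4 endoderm copies were higher and 4 lower. At an unadjusted p under 0.05 the blocked limma fit held 3 organizer and 2 neural plate copies, and 2792 of all 9251 probe sets. Between experiments, 8 of the 12 maternal and germ plasm copies were higher in experiment 2 and 0 lower. Of the 11 epidermal copies 5 were lower and 0 higher, and of the 13 mesoderm copies 6 were lower and 3 higher. Among all probe sets 20.9% were higher and 19.9% lower. In both contrasts 4 maternal and germ plasm, 4 epidermal and 3 mesoderm copies passed. The part of these marker differences in the respiratory chain values was not tested.

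All 77 probe sets whose symbol matched were accounted for. Of these, 5 were shared, each annotated to both the .L and the .S copy of a gene, and 4 were second probe sets of members. Another 6 gene copies lay below the signal minimum: atp5pd.L, cox4i2.L, ndufb4.S, ndufs3.S, ndufs4.S and sdhd.S. Just above the minimum were ndufb8.L with a mean of 109 and cox5b.2.L with 122, and just below it ndufs3.S with 82.2 and sdhd.S with 76.3. None of the shared or second probe sets passed for the injection. Between experiments the second sets of cyc1.L, ndufb9.L and ndufb10.S passed, as did the shared sets of atp5mc1, ndufs7 and uqcrc2. In the RefSeq gene table uqcrq.S and cox7a2l.L lie on chromosomes of the other subgenome than their suffix names, so which homeologous copy these probe sets read is uncertain.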

How the data were processed

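The arrays were Affymetrix Xenopus laevis genome arrays, each hybridised with cRNA made in 2 labelling cycles out of 100 ng of whole-embryo RNA, per the labels' protocols. Per the submitters' processing notes, GCOS 1.4 and MAS5 gave the deposited signal intensities, which are linear; their 2% trimmed mean was 500.05 to 500.06 on every array. Other steps are not given in the sources used here.

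Signals were rescaled to a 2% trimmed mean of 500 and used as log2(signal + 16). Leaving out 120 controls and all probe sets averaging under 100 kept 9251 of 15611. Genes were named from the platform annotation, and the 62 members matched the RefSeq table of Xenopus_laevis_v10.1 by gene identifier with 0 symbols changed; no coordinates are given because no build is named for the array. All comparisons used lmFit and trended eBayes of limma 3.58.1 (R 4.3.3), two-sided, with p-values adjusted by Benjamini-Hochberg over 9251 probe sets, or over the 655 homeolog pairs (and no trend) in the .L minus .S test, and a threshold of 0.05. The fit without a block was planned as the primary one. Arrays with the same replicate number were taken as 1 experiment, because both injections are described for each of the 2 experiments; no label ties an array to its experiment directly. Under this reading the arrays of the 2 injections shifted together between experiments (Pearson 0.838 across probe sets, minimum 0.1), so both fits are given. The p-values between injections measure the spread between 2 experiments only, and those between experiments do not measure that spread. Precision is limited by the number of arrays.

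The members and lists were chosen with earlier results of these data known. Members named are those called with the block, up to 6 per complex with the largest moderated statistic in that fit and 2 in the experiment contrast, their other copies, and the brightest per complex; ndufa8.L, ndufab1.L, ndufb8.L, ndufb10.S, ndufs1.L, cox4i1.S, cox4i2.S, cox7b.L, atp5f1a.L and atp5mc3.S, outside this rule, were named after their values were seen. Alternatives were offsets of 1 and 64, no filter or a minimum of 300, quantile or cyclic loess normalization, deposited signals, other variance models, other rules for several probe sets or copies, and each array left out. Scripts were tested on simulated data, and figures were drawn with matplotlib 3.10.9.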

Additional observations from a re-analysis of the deposited data

Results flagged for a closer look

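Some injection differences pointed one way in experiment 1 and the other way in experiment 2. With 1 array per injection in each experiment, these differences between experiments were not tested. The complex III median was 0.43 in experiment 1 and -0.0110 in experiment 2 on the log2 scale, xSGK1 minus control. Of the 22 members that pointed opposite ways, 7 fell under the rule for named genes and are given here. The complex III core protein uqcrc2.S gave 1.06 in experiment 1 and -0.0598 in experiment 2. The small complex III subunit uqcrb.S gave 0.38 and -0.0228 in experiments 1 and 2, ndufa4.L 0.34 and -0.17, cox7c.S 0.35 and -0.0669, and the assembly factor ndufaf7.S 0.20 and -0.10. The opposite order held for ndufa10.L, with -0.10 and 0.21, and for atp5f1c.S, with -0.0427 and 0.18. Outside the rule, ndufa8.L gave -0.24 and 0.92, the widest gap of the 22.

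The experiment differences of 2 complexes pointed opposite ways with the 2 injections, also untested. For experiment 2 minus experiment 1, the complex II median was 0.0646 with the xSGK1 morpholinos and -0.14 with the control morpholino. The complex IV median was -0.14 with the xSGK1 morpholinos and 0.0398 with the control morpholino.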

How the results depend on the processing

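The injection calls depended on the replicate block: without it 0 probe sets and 0 members passed, and with the replicate block 740 probe sets and 5 members did, 1 of them lower. No paired fit was possible with an array left out, since no residual degrees of freedom remain. The unpaired fits with 1 array left out are unbalanced, so each contrast then also holds part of the other. They do not show how far a difference rests on single arrays. Leaving out 1 array in the fit without the block gave 0 to 110 probe sets, 0 to 2 members called, 0 to 1 lower, and a member median of 0.110 to 0.237; the 110 came without the xSGK1 array of experiment 1, when uqcrc1.L and uqcrq.S passed. The member median of the injection was 0.0863 with no filter, 0.1504 with a minimum of 300 and 0.133 with all probe sets of a gene averaged, with or without the block. With the block, 1136 probe sets passed with an offset of 64, 490 with a minimum of 300 and 1531 after cyclic loess, and 2 members were lower with an offset of 64 and 3 after cyclic loess. The experiment contrast gave 58 probe sets, 0 members and 0 lower without the injection covariate. With 1 array left out, also without that covariate, it gave 1 to 1071 probe sets, 0 to 8 members, 0 to 5 lower and a median of -0.140 to 0.0887. Its member median was 0.0485 with no filter, 0.0107 with a minimum of 300, 0.0149 after quantile normalization, 0.00672 after cyclic loess, 0.0491 with all probe sets of a gene averaged and -0.0259 with the .L and .S copies averaged. The .L minus .S test called 0 pairs and 0 member pairs with no replicate block and with an offset of 64, and 2 member pairs after quantile normalization. Of the called genes uqcrc1.L, uqcrq.S and atp5if1.L passed in all 9 alternatives of the blocked fit, ndufs6.S in all 8 in which it was tested and cox7a2l.L in 5 of 9. With all arrays kept, none of these 5 genes changed sign under the alternatives, and the other named genes did in 3 of 317 values in the fit without the block, 3 of 285 with it and 3 of 317 between experiments. With 1 array left out, signs changed in 1 of 20 values of the 5 genes for the injection (cox7a2l.L, at -0.02) and 4 of 20 between experiments, and in 23 of 128 and 21 of 128 values of the other named genes. The causes of these changes were not tested. With 4 arrays and dim members such as ndufs6.S near the signal minimum, small differences were not detectable.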
